A study of Mus musculus with 4 samples.

Results

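The genes described here are 48 interferon-stimulated effectors, the proteins with which a cell meets a virus, out of 53465 genes counted in each library. They were taken from a fixed list of names and sorted by function into 6 sensors and editors of nucleic acids, 9 members of the IFIT and OAS families, 8 GTPases, 8 genes of ubiquitin-like modification and ADP-ribosylation, 7 membrane proteins and 10 other effectors. The list was drawn up with the adult and pup levels of these same libraries in view. Differences between the ages are therefore given below as a description of the members, and no test over the list stands behind them. All 48 names matched a gene of the annotation, and 47 passed the filter on low counts, the exception being Oas3.

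RNA came from Fgf10-positive cells of the mouse submandibular gland (SMG), a salivary gland. All mice were C57BL/6J of the genotype Fgf10CreERT2:Rosa26Tomato fl/fl, in which tamoxifen activates a Cre recombinase made under the control of Fgf10, a growth factor gene, and a red reporter then marks the cell and its descendants. Adults received tamoxifen at 0.1 mg per g of weight on postnatal days 57 and 58 and were taken at day 60, while pups received the same dose on days 4 and 5 and were taken at day 7. Each age had 2 libraries, and no group without tamoxifen or without the reporter was analysed here. Age and the time of labelling thus move together, and the labels do not say whether the replicates came from separate animals.

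Interferons are secreted proteins that bind receptors on cells. Type I and type III interferons signal through the kinases Jak1 and Tyk2 to a complex that includes Stat2 and Irf9 and binds a DNA element called ISRE in front of its target genes, whereas interferon gamma acts through a different element, GAS. The targets sense foreign RNA, block its translation, damage the membranes of vacuoles that hold pathogens or tag proteins, and many are kept at a low level without infection and climb together when interferon is present.

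The DNA in front of the members was read first, to show the element named for this response. RefSeq promoter windows of build GRCm38.p6, reaching from 250 bases before to 50 bases after the start of a transcript, were given for 36 of the 48 members. Dhx58, Zbp1, Oas2, Mx1, Mx2, Iigp1, Usp18, Parp9, Parp14, Ifi27, Ifi27l2a and Rtp4 had no entry. The ISRE core was searched as GAAANNGAAA on both strands. It stood in the window of 19 of the 36 members (52.8%), against 1079 of 27025 genes in the table (3.99%). By group the numbers were 5 of 5 GTPases, 3 of 4 sensors, 3 of 4 membrane proteins, 5 of 8 IFIT and OAS genes, 2 of 5 ubiquitin-like genes and 1 of 10 other effectors. The GAS letters TTCNNNGAA, searched on both strands, stood in 10 of the 36 (27.8%), against 2582 of 27025 genes (9.55%). Such a match describes letters in a window and does not show that a factor binds there.

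Parts of the windows of 4 members with a match and of Ifitm1, which has none in its window, are printed with ISRE core matches in capitals. They hold at most the 150 bases before the start, 5′ to 3′ on the strand of the gene. These 5 were chosen because Isg15, Ifit1, Igtp and Bst2 carry the element in 4 different groups, and because Ifitm1 is the 1 member with both pups above both adults. The choice shows no link between element and direction. The ISRE core stood in 13 of 27 members with both adults above both pups (48.1%) and in 6 of the 9 other members with a window (66.7%). This difference was not tested. Isg15 (chr4:156200819-156200968, minus strand) holds 3 overlapping matches, which begin 78, 72 and 66 bases before the start. Ifit1 (chr19:34640739-34640888, plus strand) holds 2 matches, at 104 and 85 bases. Igtp (chr11:58199406-58199555, plus strand) holds 1 match at 34 bases, with a GAS match beginning at 45 bases. Bst2 (chr8:71537473-71537622, minus strand) holds 2 overlapping matches, at 130 and 124 bases, with a GAS match beginning at 136 bases that overlaps the first. The Ifitm1 stretch (chr7:140967926-140968025, plus strand) runs from 150 to 51 bases before the start. It lies inside the annotated span of the gene, which begins at 140967221, and the bases before that position were not searched.
Isg15: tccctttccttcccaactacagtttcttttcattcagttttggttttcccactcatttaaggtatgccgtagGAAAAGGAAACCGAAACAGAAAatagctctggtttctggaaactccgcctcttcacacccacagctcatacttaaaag
Ifit1: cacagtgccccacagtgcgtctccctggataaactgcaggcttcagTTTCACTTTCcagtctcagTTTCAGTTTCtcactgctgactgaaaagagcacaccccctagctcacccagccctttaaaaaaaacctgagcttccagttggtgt
Igtp: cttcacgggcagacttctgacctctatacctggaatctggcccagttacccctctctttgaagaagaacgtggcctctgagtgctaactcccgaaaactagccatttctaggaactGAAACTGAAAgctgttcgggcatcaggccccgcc
Bst2: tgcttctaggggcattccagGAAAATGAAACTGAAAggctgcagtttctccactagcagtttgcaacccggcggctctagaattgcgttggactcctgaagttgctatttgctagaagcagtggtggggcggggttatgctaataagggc
Ifitm1: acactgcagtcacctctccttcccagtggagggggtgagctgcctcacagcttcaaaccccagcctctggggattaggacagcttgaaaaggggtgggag

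Library values are TMM-scaled CPM, that is, counts brought to a common library size that is corrected for makeup, and each pair of values gives replicate 1 before replicate 2. A log2 fold change (log2FC) is the edgeR estimate of adult over pup with its standard error (SE, 2 libraries per age), so a positive value means higher in adult. The counts over genes ranged from 7289792 in pup replicate 1 to 21490686 in pup replicate 2, and 1 count was worth 0.0525 to 0.108 CPM. Pup replicate 1 stood apart, with 76.7% of its reads outside genes against 9.70% to 10.6% in the other libraries. A background rate was read from olfactory receptor genes, of which 96.5% had a count in that library and 1.59% to 7.67% in the others. At that rate background made up 24.2% of the gene counts of pup replicate 1, and among the members 2817 of 14232 counts. Fgf10 itself came to 195 and 40.3 CPM in adult against 27.3 and 24.1 CPM in pup. Markers of other cell types differed within an age as well: the summed level of 8 endothelial markers, led by Pecam1, Flt1, Tie1 and Emcn, was 0.08 and 1159 CPM in adult against 152 and 8.72 CPM in pup, that of 8 mesenchymal markers, led by Col3a1, Col1a2, Col1a1 and Dcn, 1256 and 22439 against 26104 and 59715 CPM, and that of 8 ionocyte markers 7867 and 4974 against 167 and 217 CPM. In such bulk samples a smaller share of cells of a type and less RNA per cell cannot be told apart.

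The members as a whole were higher in adult. Of the 47 tested, 43 had a positive log2FC, against 42.9% of all 16320 genes tested, and the median was 2.13 against -0.24 over all genes. Both adult libraries lay above both pup libraries for 35 members (74.5%), a pattern that 21.8% of all genes showed. In Ifitm1 alone both pup libraries lay above both adults, as they did in 27.1% of all genes, and the ages overlapped in the other 11 tested members. The median member reached 59.9 and 72.6 CPM in adult but 15.3 and 9.30 CPM in pup. No count was found for 3 members in adult replicate 1 and for 6 in pup replicate 2. The members were chosen on this contrast, so nothing is read from these shares.

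No member passed the edgeR threshold of an adjusted p of 0.05, nor did any other gene (0% of genes in either direction), the lowest adjusted p among members being 0.141 for Rtp4. At an unadjusted p under 0.05 edgeR listed 24 members as higher in adult (5.99% of all genes) and 1 as lower (8.49%). DESeq2 called 19 members higher in adult (3.74% of all genes) and 1, Ifitm1, lower (5.28%), and limma-voom called 0. The 19 were Ifih1 and Adar of the sensors, Ifit1, Ifit3 and Oasl2, the GTPases Gbp2, Igtp, Irgm1 and Iigp1, the ubiquitin-like and ADP-ribosylation genes Isg15, Usp18 and Parp9, the membrane proteins Bst2, Ifi27l2a and Rtp4, and Samd9l, Sp100, Xaf1 and Ifi35. An exact permutation test of 2 libraries against 2 cannot give a p below 0.333. The library that stood apart moved the size of the difference. Without pup replicate 1 the members' median log2FC was 3.0. It was 2.88 with the 5 members without a count in pup replicate 2 set to the lower bound from a floor of 3 counts. Over all genes the median was 0.04 without pup replicate 1, against -0.24 with all libraries. Without adult replicate 1 the members' median was 2.12, and with adult replicate 2 left out instead it was 1.86.

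**Figure D1:**
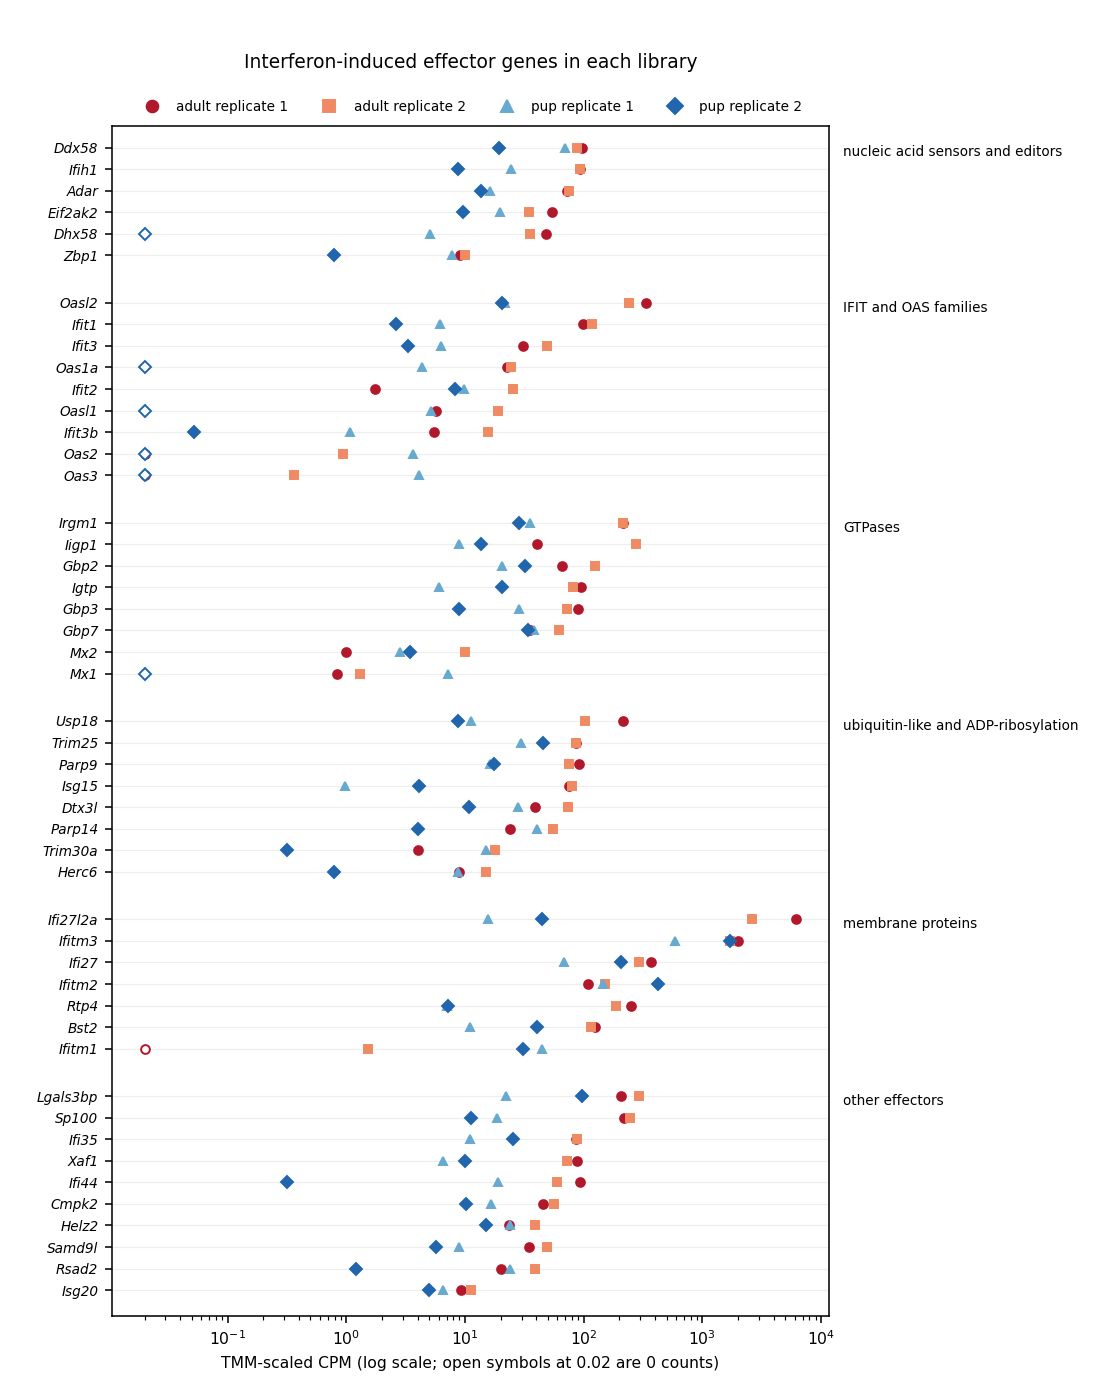
Level of each of the 48 members in each of the 4 libraries, in TMM-scaled CPM on a log axis, grouped by function and ordered by mean level; open symbols at the left edge mark 0 counts. The adult symbols lie to the right of both pup symbols for 35 members, and Ifitm1 is the member with both pup libraries to the right.

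Sensors and editors of nucleic acids were higher in both adults than in both pups in all 6 cases (21.8% of all genes). The median log2FC of the group was 1.95. Ifih1, which codes for the sensor MDA5 of long double-stranded RNA, measured 93.7 and 93.8 CPM in adult, with 24.7 and 8.72 CPM in pup. Ddx58, the gene of the related sensor RIG-I, lay at 97.3 and 87.8 CPM (adult) and 70.3 and 19.5 CPM (pup). Dhx58, which codes for LGP2, a modulator of both sensors, came to 48.4 and 35.1 CPM in adult against 5.09 and 0 CPM in pup. The adults were thus close to each other for all 3 helicases, while the pups differed from each other. The 47 counts of Dhx58 in pup replicate 1 compare with 45.9 expected from background, so that neither pup library held Dhx58 clearly above it. For Ifih1, background accounts for an expected 114.6 of the 228 counts there.

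Adar, which edits adenosine to inosine in double-stranded RNA, reached 72.9 and 74.7 CPM in adult but 16.2 and 13.7 CPM in pup, a log2FC of 2.30 ± 0.48 (SE). Eif2ak2, the gene of the kinase PKR that halts translation on sensing double-stranded RNA, measured 54.0 and 34.6 CPM in adult, with 19.6 and 9.67 CPM in pup. Zbp1, a sensor of Z-form nucleic acids that can trigger cell death, was low throughout, with 9.12 and 9.94 CPM in adult against 7.79 and 0.788 CPM in pup. The Adar values were close within each age and far apart between the ages. Of its 150 counts in pup replicate 1, however, 114 were expected from background, so the closeness of the pups cannot be taken as agreement. After background subtraction its log2FC was 2.92. For Zbp1 the gap between the ages was smaller than the gap between the pups. About 16.8% of the exon length of Adar is shared with Chrnb2, a gene whose reads cannot be separated without strand.

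The proteins of the IFIT and OAS families bind foreign RNA or make the oligoadenylates that activate RNase L. Of the 8 tested members 6 were higher in both adults (21.8% of all genes), with a median log2FC of 3.26. Oasl2, an OAS-like gene, had the highest mean CPM of the group, with 334 and 243 CPM in adult against 22.0 and 20.4 CPM in pup (log2FC 3.77 ± 0.57, SE). Ifit1, which binds RNA whose cap lacks host methylation, lay at 98.9 and 117 CPM (adult) and 6.17 and 2.63 CPM (pup), with a log2FC of 4.63 ± 0.65 (SE). The ratio of mean CPM, adult over pup, was 13.6 for Oasl2 and 24.6 for Ifit1, and in neither gene did the ages come near each other. Ifit3, a partner of Ifit1, came to 30.7 and 49.1 CPM in adult against 6.28 and 3.31 CPM in pup. Oas1a, an oligoadenylate synthase, reached 22.8 and 24.3 CPM in adult but 4.33 and 0 CPM in pup.

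Several IFIT and OAS genes separated the adults from each other. Ifit2, which lies next to Ifit3 in a cluster of Ifit2, Ifit3, Ifit3b and Ifit1 on chromosome 19, measured 1.76 and 25.2 CPM in adult, with 9.74 and 8.25 CPM in pup. Its pups lay between its adults, and its log2FC of 0.58 was -2.35 without adult replicate 2. Ifit3b lay at 5.44 and 15.8 CPM (adult) and 1.08 and 0.0525 CPM (pup). Oasl1 came to 5.67 and 18.9 CPM in adult against 5.19 and 0 CPM in pup. Both were lower in adult replicate 1 than in adult replicate 2 by more than 2-fold, and both were near or below background in pup replicate 1, where Ifit3b had 10 counts with 28.1 expected and Oasl1 had 48 with 36.6 expected. Oas2 and Oas3 were at or near 0 outside that library, with 0 and 13 counts of Oas2 and 0 and 5 counts of Oas3 in the adults and none in pup replicate 2. Ifit3 and Ifit3b are near copies of each other, so the split of reads between them is uncertain.

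Of the 8 GTPases, some of which coat and break the vacuoles of intracellular pathogens, 5 were higher in both adults (21.8% of all genes). The group's median log2FC was 1.99. Irgm1, a regulator of the immunity-related GTPases, reached 213 and 213 CPM in adult but 35.1 and 28.4 CPM in pup (log2FC 2.75 ± 0.51, SE). Igtp, also known as Irgm3, measured 95.9 and 82.0 CPM in adult, with 6.06 and 20.5 CPM in pup. Both genes were even between the adults. Iigp1, an effector GTPase of the same family, lay at 40.8 and 275 CPM (adult) and 8.98 and 13.6 CPM (pup). Its adults differed more from each other than adult replicate 1 did from the pups. In pup replicate 1 its 83 counts compare with 81.7 expected from background. Its log2FC was 3.81 with all libraries, 4.57 with adult replicate 1 left out and 1.86 with adult replicate 2 left out.

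The guanylate-binding proteins Gbp7, Gbp3 and Gbp2 are neighbours on chromosome 3 but did not share a pattern. Gbp2 came to 65.9 and 125 CPM in adult against 20.3 and 32.3 CPM in pup. Gbp3 reached 89.5 and 72.8 CPM in adult but 28.4 and 8.93 CPM in pup. Gbp7 measured 35.0 and 61.9 CPM in adult, with 38.1 and 33.9 CPM in pup. The ages were apart for Gbp2 and Gbp3 and overlapped for Gbp7, whose log2FC was 0.43 and turned to -0.04 without adult replicate 2. The dynamin-like GTPases Mx1 and Mx2, classical inhibitors of influenza and other viruses, were scarce: Mx1 stayed at or below 7.25 CPM and Mx2 at or below 10.01 CPM in every library. In many inbred laboratory strains Mx1 carries a deletion. The 67 counts of Mx1 in pup replicate 1 compare with 53.1 expected from background, and its log2FC of -1.75 was 7.04 without that library, where the pups hold no count.

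Genes of ubiquitin-like modification and ADP-ribosylation had a positive log2FC in 8 of 8 cases (42.9% of all genes), with a median of 1.45. Both adults lay above both pups in 6 (21.8% of all genes). Isg15, the ubiquitin-like protein that is attached to other proteins after interferon, lay at 74.9 and 80.2 CPM (adult) and 0.974 and 4.10 CPM (pup), with a log2FC of 4.90 ± 0.83 (SE). Its 9 counts in pup replicate 1 lay below the 10.6 expected from background. Usp18, the protease that removes Isg15 and also damps the type I receptor, came to 215 and 104 CPM in adult against 11.4 and 8.72 CPM in pup (3.99 ± 0.61). The modifier and its protease were thus both at or above 74.9 CPM in each adult library and at or below 11.4 CPM in each pup library. Trim25, a ubiquitin ligase that acts on RIG-I, reached 86.3 and 86.0 CPM in adult but 29.7 and 45.5 CPM in pup. Herc6, the main ligase of Isg15 in mice, measured 8.97 and 15.05 CPM in adult, with 8.77 and 0.788 CPM in pup. Its 81 counts in pup replicate 1 compare with 130 expected from background.

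Parp9 and its partner Dtx3l, a ubiquitin ligase, are divergent neighbours on chromosome 16 whose exons overlap in part. Parp9 lay at 92.1 and 75.2 CPM (adult) and 16.1 and 17.4 CPM (pup), with a log2FC of 2.32 ± 0.47 (SE). Dtx3l came to 39.2 and 74.6 CPM in adult against 27.8 and 10.8 CPM in pup. Both were higher in both adults, although the adults ranked in opposite order for the pair. Parp14, a mono-ADP-ribosyltransferase of the same cluster, came to 23.8 and 55.7 CPM in adult against 40.7 and 3.99 CPM in pup. Trim30a, a ubiquitin ligase of the tripartite motif family, measured 4.06 and 18.1 CPM in adult, with 14.9 and 0.315 CPM in pup. For Parp14 and Trim30a pup replicate 1 lay between the adults and pup replicate 2 lay below all other libraries.

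The membrane proteins held the members of highest CPM and the only member higher in both pups. Ifi27l2a, a small hydrophobic protein of the Ifi27 family (chromosome 12, 103442167 to 103443680 in GRCm38), lay at 6190 and 2607 CPM (adult) and 15.6 and 44.4 CPM (pup). It averaged 4398 ± 2533 CPM (SD, n = 2) in adult and 29.99 ± 20.4 CPM in pup, a 147-fold ratio of means and a log2FC of 7.19 ± 1.71 (SE). By CPM it ranked at place 10 among all genes in adult replicate 1, 39 in adult replicate 2 and 4746 in pup replicate 2. Of the members' summed CPM it took 52.3% and 31.8% in adult but 1.01% and 1.49% in pup. DESeq2 called it (adjusted p = 4.01e-22), whereas edgeR's quasi-likelihood test gave an adjusted p of 0.235. Without it the median log2FC of the other tested members was 2.10. Leaving out 1 gene of 47 can move a median only slightly, whatever that gene measures.

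Ifi27, which lies 1.93 kb from Ifi27l2a, came to 373 and 295 CPM in adult against 68.8 and 207 CPM in pup. The neighbours thus shared a direction but not a size, as the log2FC of Ifi27 was 1.27 ± 0.72 (SE). Rtp4 (chromosome 16, 23520291 to 23614222), a Golgi chaperone of receptors, reached 252 and 187 CPM in adult but 7.03 and 7.25 CPM in pup. Its log2FC of 4.94 ± 0.56 (SE) had the lowest p of all members. About 13.9% of the exon length of Rtp4 is shared with the predicted gene Gm45338. Bst2, or tetherin, which holds budding virus on the cell surface, measured 124 and 115 CPM in adult, with 11.1 and 40.8 CPM in pup.

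The Ifitm genes, whose products block fusion of viruses with endosomes, lie within 1 cluster on chromosome 7 and went different ways. Ifitm3 was abundant in every library, with 1997 and 1711 CPM in adult against 586 and 1726 CPM in pup. Pup replicate 2 lay between the adults, and without pup replicate 1 the log2FC was 0.10. Ifitm2 lay at 108 and 152 CPM (adult) and 146 and 423 CPM (pup), and 40.9% of its exon length is shared with Gm45717. Ifitm1 (chromosome 7, 140967221 to 140969825) came to 0 and 1.51 CPM in adult against 44.5 and 30.8 CPM in pup, that is 0 and 21 counts against 411 and 586. Background would give only 15.4 of the 411 counts in pup replicate 1. Its log2FC was -5.61 ± 1.65 (SE), and it was the member that DESeq2 called lower in adult (adjusted p = 0.00351, edgeR adjusted p = 0.275). The mesenchymal markers, which were also lowest in adult replicate 1, summed to 22439 CPM in adult replicate 2, where Ifitm1 stood at 1.51 CPM; their part in the Ifitm1 values was not tested.

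Measured per kb of exon, so that genes can be compared, Ifi27l2a led the adults with a mean of 9500 CPM per kb. Ifitm3 followed at 2735 CPM per kb, then Ifi27 at 228, Ifitm2 at 199, Bst2 at 132 and Rtp4 and Isg15 at 103 CPM per kb. In pup replicate 2 the order was Ifitm3 at 2546, Ifitm2 at 646, Ifi27 at 141 and Ifi27l2a at 95.9 CPM per kb. Ifi27l2a thus stood above Ifitm3 per kb in the adult mean and below it in that pup library.

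**Figure D2:**
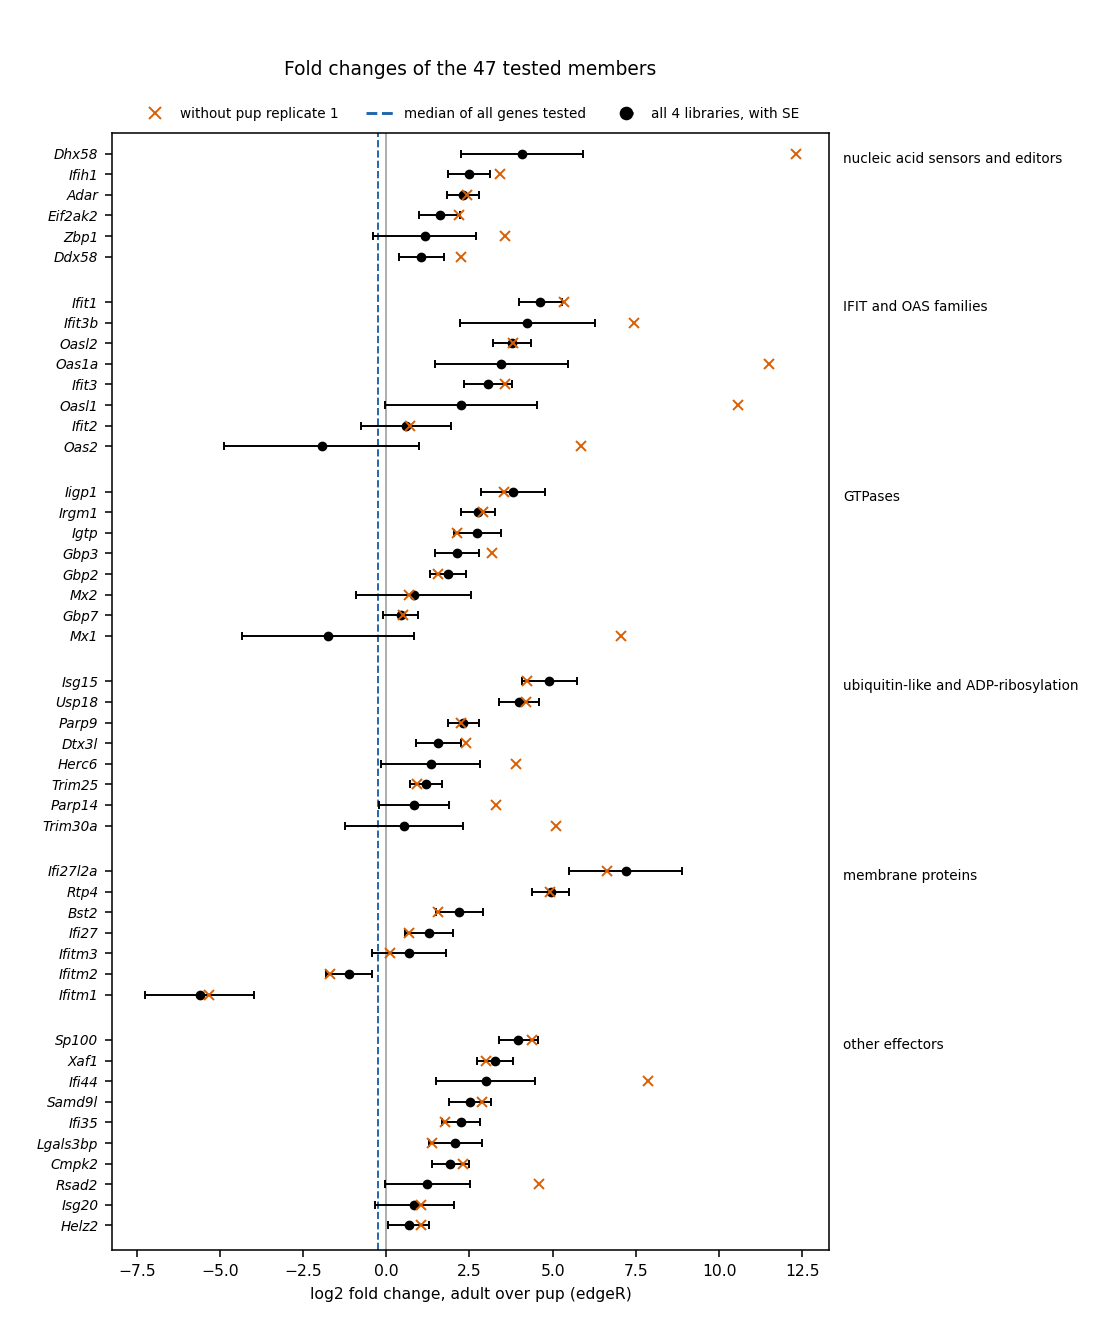
Log2 fold change of adult over pup for the 47 tested members (black, edgeR, bars give the SE) and the same value without pup replicate 1 (crosses); the dashed line is the median of all genes, at -0.24. The crosses of Dhx58, Oas1a and Oasl1, beyond 10, belong to members with 0 counts in pup replicate 2, whose fitted value depends on a small added count and is no bound.

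The other effectors had a positive log2FC in 10 of 10 cases (42.9% of all genes), with a median of 2.16. Both adults lay above both pups in 8 (21.8% of all genes). Sp100, a component of PML nuclear bodies, reached 220 and 248 CPM in adult but 18.7 and 11.2 CPM in pup (log2FC 3.97 ± 0.58, SE). Lgals3bp, a secreted glycoprotein that binds galectins, measured 206 and 296 CPM in adult, with 22.2 and 96.9 CPM in pup. Xaf1, a partner of the apoptosis inhibitor XIAP, lay at 88.8 and 72.4 CPM (adult) and 6.60 and 10.03 CPM (pup), with a log2FC of 3.27 ± 0.53 (SE). In all 3 genes the lower adult lay above the higher pup by more than 2-fold. Ifi35, which binds the interferon-induced protein Nmi, came to 86.2 and 87.9 CPM in adult against 11.0 and 25.6 CPM in pup. Ifi44 reached 92.7 and 59.7 CPM in adult but 19.2 and 0.315 CPM in pup. Samd9l, a restriction factor of poxviruses, measured 34.8 and 49.2 CPM in adult, with 8.98 and 5.67 CPM in pup. The adults of Ifi35, Ifi44 and Samd9l lay at or above 34.8 CPM and the pups at or below 25.6 CPM.

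Rsad2, the gene of viperin, and Cmpk2, a mitochondrial nucleotide kinase, are adjacent on chromosome 12. Cmpk2 lay at 45.4 and 56.3 CPM (adult) and 16.6 and 10.2 CPM (pup). Rsad2 came to 20.2 and 38.8 CPM in adult against 23.9 and 1.21 CPM in pup. The ages were apart for Cmpk2 and overlapped for Rsad2 through pup replicate 1. Helz2, a helicase and coactivator of nuclear receptors, also overlapped, with 23.5 and 38.7 CPM in adult against 23.9 and 15.03 CPM in pup. Isg20, an exonuclease of RNA, was low, with 9.35 and 11.2 CPM in adult against 6.49 and 4.99 CPM in pup.

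The background of pup replicate 1 mattered for some members more than for others. In 21 of the 48 the count there was no more than 2 times the expected background, and in 7 (Ifit3b, Oas3, Mx2, Oas2, Herc6, Isg15 and Xaf1) it was at or below it. None of the membrane proteins was among the 21, whereas 7 of the 9 IFIT and OAS genes were. Leaving pup replicate 1 out moved the median log2FC from 3.26 to 5.61 for the IFIT and OAS genes (4.59 with members at 0 in pup replicate 2 set to their lower bound), from 1.45 to 3.61 for the ubiquitin-like group, from 1.95 to 2.92 for the sensors and from 1.27 to 0.69 for the membrane proteins. Over all genes the median moved from -0.24 to 0.04 without pup replicate 1. The membrane group's median was 2.28 without pup replicate 2. With both adults compared with pup replicate 2 alone, 41 of 47 members were higher in the adults (34% of all genes), and with pup replicate 1 alone 36 were (35.7%). With both pups compared with adult replicate 1 alone the number was 36 (30.2%), and with adult replicate 2 alone it was 42 (31.5%).

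**Figure D3:**
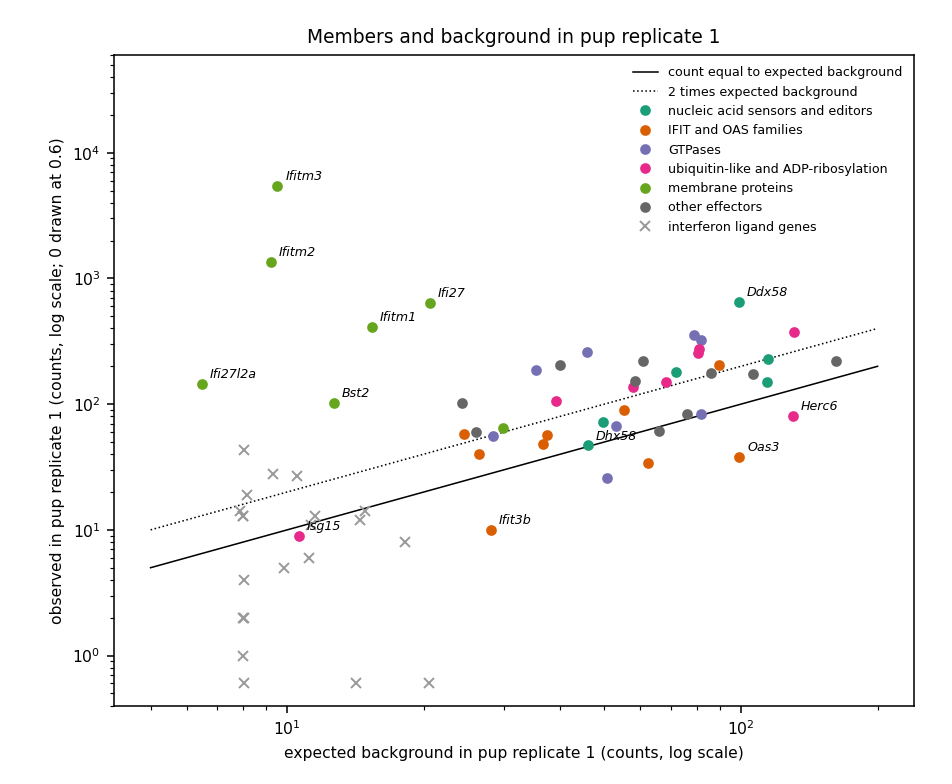
Counts of the members (coloured by group) and of 21 interferon genes (crosses) in pup replicate 1 against the count expected from background, both on log axes; the solid line is equality and the dotted line 2 times the background. The Ifitm genes, Ifi27, Ifi27l2a and Bst2 lie far above the lines, and Isg15, Ifit3b, Oas3 and Herc6 lie on or below the solid line.

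The adults carried most members, but not all, at a similar level. Of the 48 members 36 were within 2-fold between the adults, while 38.8% of all genes tested differed by more than 2-fold. Of the 47 tested, 9 were more than 2 times higher in adult replicate 2 (26% of all genes) and 2, Ifi27l2a and Usp18, more than 2 times higher in adult replicate 1 (12.8%). Those higher in adult replicate 2 were Parp14, Ifit3b, Oasl1, Trim30a, Iigp1, Mx2, Ifit2, Oas2 and Ifitm1, and Oas3, which was not tested, was also higher there. With 1 library on each side this difference has no replicate check. Adult replicate 2 held the endothelial markers Pecam1 and Flt1 at 395 and 197 CPM, where adult replicate 1 had 0.08 and 0 CPM, and its mesenchymal markers were higher too. Their part in the levels of these members was not tested.

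**Figure D4:**
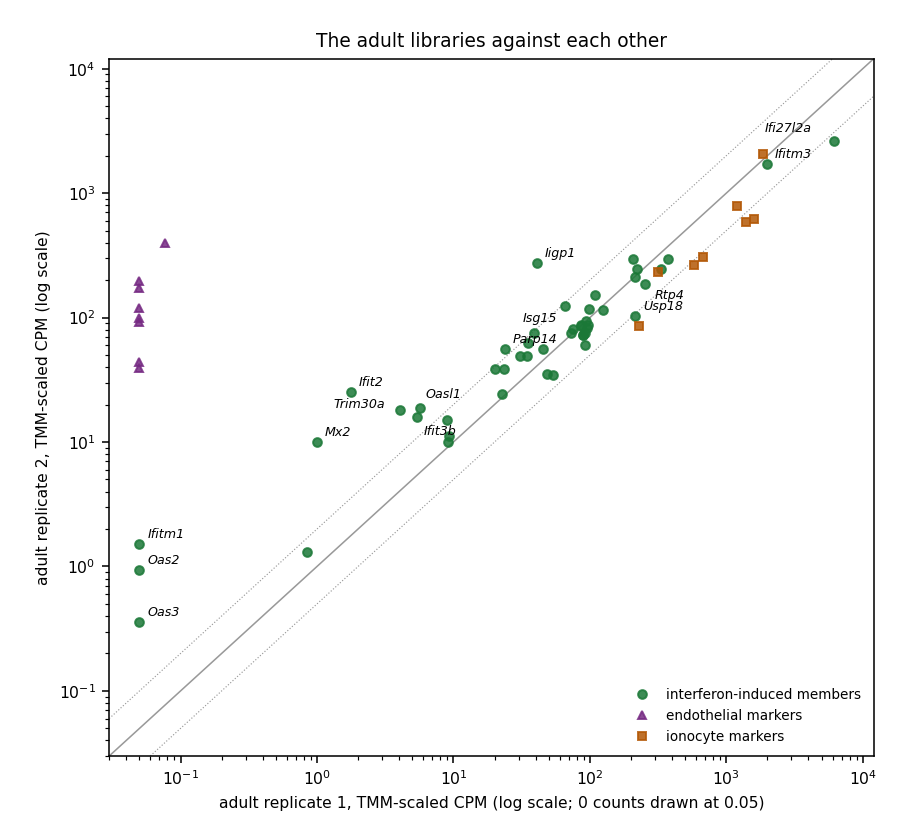
Level of each member in adult replicate 2 against adult replicate 1, in TMM-scaled CPM on log axes, with the 8 endothelial and 8 ionocyte markers beside them; the solid line is equality, the dotted lines 2-fold. Most members (36 of 48) lie between the dotted lines, the endothelial markers lie at the left edge, and Iigp1, Ifit2 and Mx2 lie above the band.

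Interferon genes themselves were not detected above background as a group. All 21 genes for interferons on the list had 0 counts in both adults and in pup replicate 2, where a count of 0 allows up to 3 counts. In pup replicate 1 they summed to 235 counts, with 226 expected from background, the highest being Ifna15, Ifne, Ifnb1 and Ifnl3 with 43, 28, 27 and 19 counts. The background expected for these 4 genes was 8.04, 9.32, 10.5 and 8.17 counts, so each lay more than 2 times above it in that library, which none of the other interferon genes did. These libraries hold sorted cells, so interferon made elsewhere in the gland would not appear in them.

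Most receptor chains overlapped between the ages, while several factors that carry the signal were higher in both adults. Ifnar1, a chain of the type I receptor, came to 53.2 and 45.8 CPM in adult against 49.3 and 66.6 CPM in pup. Ifnar2, Ifngr1, Ifngr2 and Ifnlr1, further receptor chains, overlapped as well. Il10rb, a chain of the type III receptor that the interleukin 10 receptor also uses, was higher in both adults, with 48.2 and 49.3 CPM against 23.8 and 27.2 CPM in pup (log2FC 0.94 ± 0.48, SE; edgeR adjusted p = 0.456). Jak1, the shared kinase, measured 170 and 253 CPM in adult, with 188 and 264 CPM in pup. Irf7, the factor that amplifies type I interferon, lay at 387 and 256 CPM (adult) and 17.4 and 7.30 CPM (pup), a log2FC of 4.70 ± 0.74 (SE). Stat2 and Irf9, parts of the ISRE-binding complex, had log2FC of 2.14 ± 0.63 and 1.44 ± 0.48. Irf1, a factor of the interferon gamma arm, overlapped between the ages at 103 and 249 against 201 and 284 CPM. Socs3, an inhibitor of cytokine signalling, came to 347 and 463 CPM in adult against 507 and 927 CPM in pup.

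All 21 genes of this list of receptors, kinases and factors were tested. Of these 13 had a positive log2FC (42.9% of all genes), and the median was 0.53. Both adults lay above both pups for 10 (21.8% of all genes) and both pups above both adults for 1, Socs3 (27.1%). EdgeR called 0 of them at an adjusted p of 0.05, with 5 higher in adult (5.99% of all genes) and 0 lower (8.49%) at an unadjusted p under 0.05. DESeq2 called 3 higher in adult (3.74%), Irf7 and Irf9 among them.

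**Figure D5:**
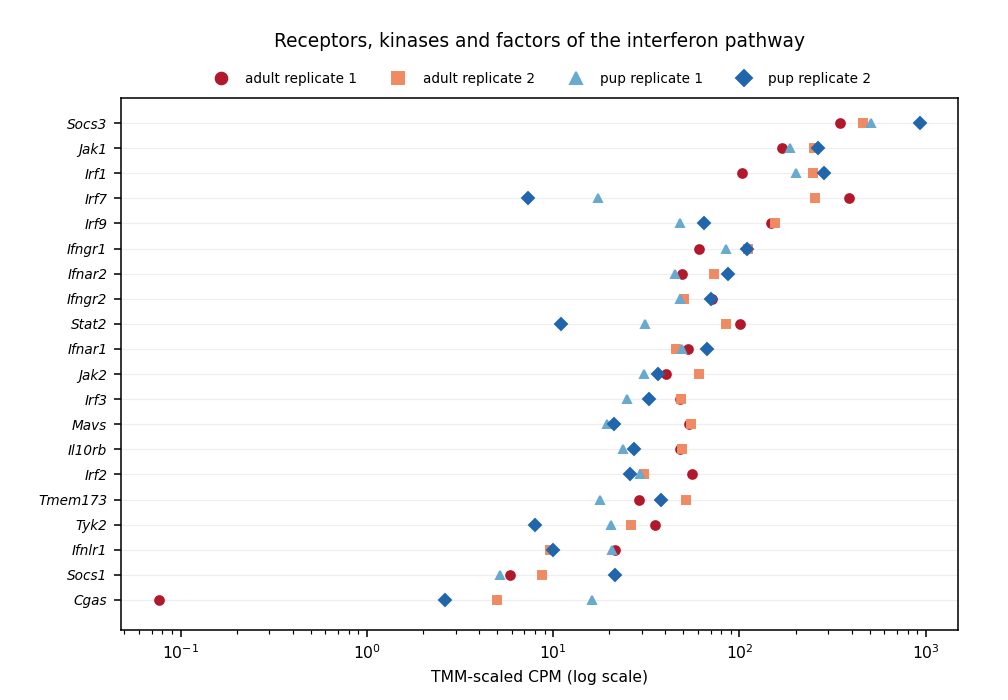
Level of receptors, kinases and factors of interferon signalling in each library, in TMM-scaled CPM on a log axis, ordered by mean level. The adult symbols of Irf7 and Stat2 lie to the right of both pup symbols, and the symbols of Ifnar1, Jak1 and Ifngr2 are mixed.

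Interferon-induced genes outside the 48 gave a comparison list of 69, of which 62 were tested. It shares 4 genes with the list above, Stat2, Irf7 and Irf9 among them. Here 50 had a positive log2FC (42.9% of all genes) and 12 a negative one, and the median was 1.08. Both adults lay above both pups for 34 of the 62 (21.8% of all genes) and both pups above both adults for 1, Ifi204 (27.1%). EdgeR called 0 at an adjusted p of 0.05 and listed 15 higher (5.99% of all genes) and 0 lower (8.49%) at an unadjusted p under 0.05. DESeq2 called 14 higher (3.74%) and 0 lower (5.28%). Ly6e, a membrane-anchored protein and the highest of them by CPM, measured 4427 and 3819 CPM in adult, with 294 and 700 CPM in pup. Lgals9, a galectin, overlapped at 84.4 and 91.2 against 38.9 and 105 CPM. The difference between this list and the members was not tested, since the members had been chosen with the contrast known.

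Markers of leukocytes, cells that can carry these genes at high levels, went different ways between the ages. The 22 of them summed to 93.0 and 103 CPM in adult and to 170 and 22.3 CPM in pup, 1107 of the 1573 counts in pup replicate 1 being expected from background. Adgre1, Itgam, Itgax, Cd3e, Cd3d, Nkg7, Siglech and Jchain were among the 9 markers with 0 counts in both adults and in pup replicate 2. The myeloid markers Tyrobp, Csf1r and Cx3cr1 held 105, 79 and 74 counts in adult replicate 1 and 11, 9 and 11 in adult replicate 2. In pup they held 3, 37 and 19 counts in replicate 1, each below background, and 27, 5 and 0 in replicate 2. Coro1a and Cd52 had counts in every library. Of the 22 markers, 4 were more than 2 times higher in adult replicate 1 and another 2 in adult replicate 2. The highest by mean CPM was Cd14, a receptor of monocytes and macrophages for bacterial lipopolysaccharide, which moved with the members at 35.3 and 62.1 CPM in adult against 9.42 and 2.99 CPM in pup (log2FC 2.98 ± 0.79, SE; edgeR adjusted p = 0.26, DESeq2 adjusted p = 0.0225). Laptm5, at 8.81 and 6.19 against 4.98 and 0.998 CPM, was higher in both adults as well. Ptprc lay at 7.74 and 2.38 CPM (adult) and 64.3 and 0 CPM (pup), and Lyz2 overlapped at 9.04 and 13.3 against 12.3 and 6.30 CPM. Cd68 and the macrophage receptor Mrc1 were higher in both pups, Mrc1 with 0 CPM in each adult against 8.87 and 2.94 CPM, of which the first was at background (82 counts with 89.4 expected; edgeR adjusted p = 0.284, DESeq2 adjusted p = 0.0123). Of the 12 markers tested 9 had a positive log2FC (42.9% of all genes), with a median of 0.60. The members summed to 11832 and 8207 CPM in adult against 1540 and 2980 CPM in pup. Without Ifi27l2a the sums were 5643 and 5600 CPM in adult against 1525 and 2936 CPM in pup. The part of the remaining marker RNA in the members' levels was not tested. The 8 epithelial markers, led by Krt18, Krt8, Cdh1 and Epcam, moved with the members, with 8408 and 11492 CPM in adult against 1337 and 3029 CPM in pup, as did the ionocyte markers, led by Tfcp2l1, Hepacam2, Atp6v0d2 and Foxi1. Age and cell makeup therefore cannot be told apart for the members in these libraries.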

How the data were processed

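The labels' protocols describe 1 ng of total RNA per library and the SMART-Seq HT kit. The values used are the read counts per Ensembl gene that the authors deposited, 1 file per library. Per the submitters' processing notes, cutadapt 1.18, STAR 2.5.2a, HTSeq 0.11.0, R 3.5.1, DESeq2 1.20.0 and build GRCm38 were used. The sources used here do not give the options, the annotation release or the strand setting. HTSeq's tallies of unassigned reads (32.9%, 32.3%, 84.4% and 31.5% of reads in adult 1, adult 2, pup 1 and pup 2) were left out. A further 2 tables of the whole series, with 8 value columns that match no single sample, were not used. Of 53465 genes, 53360 matched GENCODE vM21, from which symbols, positions and exon lengths were taken.

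The main fit was edgeR 4.0.16 (R 4.3.3) on the counts as deposited: TMM factors, filterByExpr (minimum count 10, total 15), age as the sole term, the quasi-likelihood F test and a Benjamini-Hochberg adjustment over 16320 genes with a threshold of 0.05. The common biological coefficient of variation was 0.895. DESeq2 1.42.0 and limma-voom (limma 3.58.1) were alternatives, beside other scalings and filters, the replicate number as a block, a subtraction of background from pup replicate 1, and each library left out in turn. The code was tested on simulated data with known changes. Those data had less spread between libraries than these and no added background in any library. The check thus bears on the code and not on the power of this fit. Background was estimated as the rate of counts per exon kb in 1134 olfactory receptor genes, multiplied by the exon length of each gene and by 0.5 for genes on X and Y. It is an average rate and need not hold gene by gene. Nothing in the labels says that replicates are separate animals. The spread behind each p-value is therefore that of these libraries and may be technical. The correlation of deviations between same-numbered libraries was -0.10. With 2 libraries per age this value cannot show whether replicate numbers pair the samples.

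The members, the comparison lists and the promoters printed were chosen with earlier results of these data known. Library values were given for the 4 members of each group with the highest mean CPM and for members whose ages do not overlap with at least 5 CPM in the higher age, and for further members where a sentence turns on them; of each comparison list the 4 genes of highest mean CPM were named. The list entry Mnda matched no gene symbol and was left out. Promoter windows came from RefSeq, and matches were counted per gene. Some genes of the comparison lists are not reported here by name, and they are left out of the plots.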

Additional observations from a re-analysis of the deposited data

How the results depend on the processing

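With 2 libraries per age, the number of genes called depended on the method, the filter and the library left out. Against 0 genes called in either direction by the main edgeR fit, 284 were higher and 231 lower in adult with no filter beyond 1 count, 13 and 2 with at least 10 counts in every library of an age, 610 and 862 with DESeq2, and 15 and 2 after background was subtracted from pup replicate 1. The numbers ranged from 0 to 247 higher and 0 to 733 lower when each library was left out. With no filter beyond 1 count, 13 of 48 members were called higher and 1 lower, and 45490 genes were tested. The filter of 10 counts called 1 of 46 members higher (Rtp4) and tested 15186 genes. Out of 47 members and 16320 genes, DESeq2 called 19 members higher and 1 lower, and background subtraction 3 higher. The cause of the differences in calls between settings was not tested. Scaling by DESeq2 size factors, upper quartiles or library totals, limma-voom and the replicate block called 0 genes. Over all genes the median log2 fold change moved by -0.07, -0.18 and -0.38 under those scalings, and the members' medians were then 2.04, 1.90 and 1.60. Under the replicate block the members' median was 2.34 with 43 positive, and no call differed. Leaving out a library gave members' medians of 1.86 to 3.0 with 39 to 45 positive, and 36 to 42 members with every adult library above every pup library, the last an alternative chosen after seeing the data.

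Direction turned for 7 members, none of which was called. Ifit2 was -0.31 with limma-voom and -0.40 with the replicate block, and leaving out a library gave -2.35 to 1.43. Oas2 was 0.054 with limma-voom, 5.65 after background subtraction and -7.66 to 5.86 with a library left out. Mx1 was 2.17 with limma-voom, 1.24 with the block, 0.0089 after background subtraction and -2.75 to 7.04 with a library left out. With a library left out, Mx2 ranged from -1.64 to 1.64, Gbp7 from -0.039 to 0.73, Trim30a from -0.90 to 5.09 and Parp14 from -0.034 to 3.31. The lowest values came without adult replicate 2 for Ifit2, Oas2, Mx2, Gbp7 and Trim30a, and without pup replicate 2 for Mx1 and Parp14. Trim30a was also -0.17 under library totals and -0.43 without pup replicate 2. For low members such as Oas2, Oas3 and Mx1 depth limits any statement, since they held at most 18 counts outside pup replicate 1. PCR reads without molecular identifiers are not independent molecules, so counting error understates the true error.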
